A study of Homo sapiens with 7 samples.

Results

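The splice array of this series holds 222959 events for which 3 probe sets, named with the letters B, F and T, all carry a value. An event is the group of rows of the value table with the same text before the hyphen, and every group with a B, an F and a T row was kept. There are 465789 such groups in the table, whether or not they hold all of B, F and T, and the complete events take up 668877 of its 2108940 rows. In 207595 events (93.1%) at least 1 of the 3 rows had a mean above a set level just under 3 on the log2 scale over all arrays, and in 109658 all 3 rows did. The events belong to 18498 gene identifiers, with a median of 9 events per gene and a range of 1 to 164. Of all events, 195788 (87.8%) could be given a current gene symbol, from 15560 genes, and 21394 have no gene listed.

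The arrays carry RNA of HCT116, an established human colon carcinoma cell line, treated with camptothecin (CPT) dissolved in dimethyl sulfoxide (DMSO). CPT late is the pair of arrays at 15 and 20 h of 10 µM CPT, CPT early is the 3 arrays at 1, 2 and 4 h of the same dose, and DMSO is the pair of solvent controls, 0.1% DMSO, at 4 and 20 h. No time point was repeated with the same treatment and the labels do not name separate cultures, so a p-value here weighs a group difference by the scatter of arrays that also differ in time and may be technical. The series asked how inhibition of topoisomerase I affects splicing across the genome.

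Camptothecin traps topoisomerase I on DNA, where the enzyme relaxes the twist that builds up around a moving RNA polymerase, and so blocks transcription and replication. Splicing removes introns while the polymerase is still copying the gene, and many genes join alternative exons or end at alternative sites. A splice array follows such choices with several short probe sets in each event, so that a change of 1 part of a transcript relative to its neighbours appears as a difference between rows. What the letters B, F and T stand for, and where the rows lie in each gene, is not given in the sources used here.

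Each event was described by 2 differences of log2 values on every array. The F index is the F row minus the mean of the B and T rows, and T minus B is the difference of those letters. Since the rows are log2 values, both indices cancel a change that all 3 rows show to the same extent. A row too dim or too bright to follow a change would leave a difference, which was not tested. They compare probe sets of unlike brightness, so only changes of an index between arrays are read here, not its level. The B rows were dimmer, with a median row mean of 3.67, against 4.12 for F rows and 4.16 for T rows, and B was the dimmest of the 3 in 46.6% of events. The rows that decide whether an event is kept can lie very near the limit: the brightest row of MYH13 event 18 averaged 2.94991 and stayed outside, while that of PPP2R3C event 13 averaged 2.95004 and was inside.

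The largest part of the change came late. On the CPT 15 and 20 h arrays 4857 and 6821 events had an F index more than 2 above the DMSO mean, and 3498 and 5605 were more than 2 below it. At 1, 2 and 4 h the higher events numbered 965, 1665 and 1290, and the lower ones 876, 1650 and 1094. T minus B followed the same order, with 2953, 4560 and 3688 events lower by more than 2 at 1, 2 and 4 h, and 10203 and 14042 at 15 and 20 h. Between single arrays of the same time, 31.8% of events differed by more than 1 in the F index at 20 h (CPT minus DMSO) and 22.4% at 4 h, while 21.6% did so between the DMSO arrays of 20 and 4 h. For T minus B the shares were 38.9% at 20 h and 29.3% at 4 h, and 28.4% between the DMSO arrays of 20 and 4 h. These are single arrays, so no test was made. Across all events the F index correlated at 0.777 to 0.851 between a CPT late array and a DMSO or CPT early array, at 0.861 between the CPT late arrays, and at 0.860 to 0.894 among the DMSO and CPT early arrays. These are correlations across events, which share arrays and probe brightness.

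**Figure D1:**
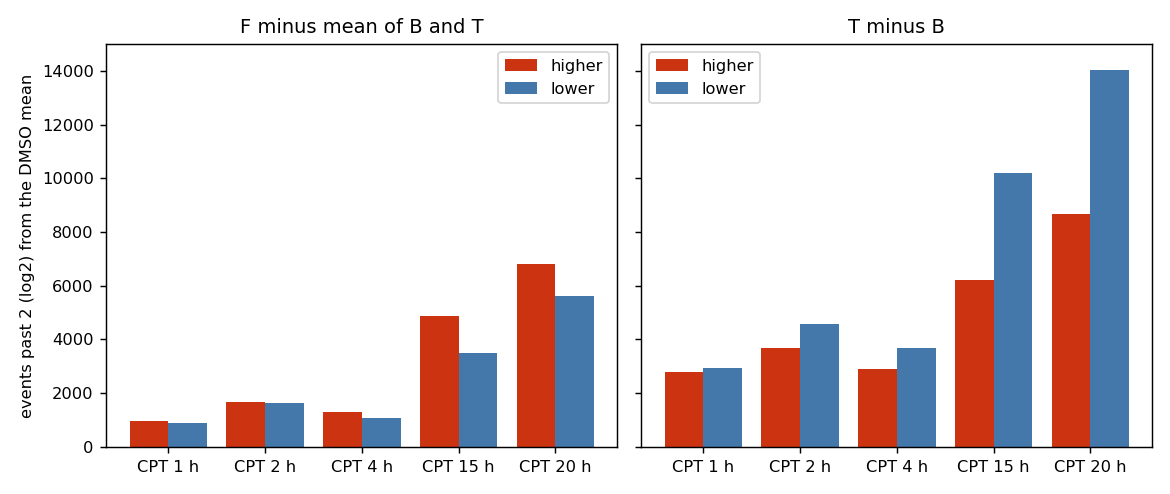
Number of events (vertical axis) whose F index (left) or T minus B (right) lay more than 2 above (red) or below (blue) the mean of the DMSO arrays on the log2 scale, for each CPT array in order of time (horizontal axis). The 15 and 20 h arrays hold more such events than the 1, 2 and 4 h arrays, and in T minus B the lower events outnumber the higher ones there, by 14042 to 8670 at 20 h.

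For the F index in CPT late minus DMSO, 4350 of 222959 events passed an adjusted p of 0.05 in limma's moderated test with Benjamini-Hochberg adjustment over all events, which is 1.95%. Of these 2712 were higher (1.22%) and 1638 lower (0.735%), in 2608 gene identifiers, and 4314 of them belong to the events with a row mean above the set level. The number of calls leaned on single arrays: it was 265 without the DMSO 4 h array, 1340 without the DMSO 20 h array and 1231 without the CPT 20 h array. With the 4 and 20 h arrays of CPT and DMSO alone and time as a block, 104 events passed. CPT late minus CPT early gave 4991 calls (2.24%), 2979 higher (1.34%) and 2012 lower (0.902%), and 1890, 1743, 2657 and 1266 calls without the CPT 1, 2, 4 or 20 h array. The 3 comparisons share arrays, and the 7 arrays limit the precision of each.

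The 2 directions differed in which rows moved. Among the 2712 events with a higher F index, the F row itself was called higher in 590, whereas B or T was called lower in 2091 and both of them in 1352. In 1738 of these events B or T fell with no call for the F row, and in 429 the F row rose with no call for B or T. Among the 1638 events with a lower F index the F row was called lower in 1344, and in 816 of them neither B nor T was called. The F row was the dimmest of the 3 rows in the DMSO arrays in 57.2% of the events with a higher index, against 28.9% of all events, and the brightest in 58.2% of the events with a lower index, against 35.6% of all. The same DMSO arrays enter the index change that selects the events, so these shares are not independent of the calls. The part of probe brightness in these calls was not tested.

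Falling rows were common over the whole table. In the fit over all B, F and T rows, 10.7% were called lower and 3.19% higher in CPT late minus DMSO: 20695 B, 22165 F and 28416 T rows fell, and 8723 B, 6641 F and 5941 T rows rose. In CPT late minus CPT early 2.77% of rows were called higher and 10.9% lower. The spread of T rows over events was narrower in CPT late, with an SD of 1.95 and 1.96 at 15 and 20 h, against 2.16 and 2.08 on the DMSO arrays of 4 and 20 h and 2.12 to 2.14 in CPT early. After quantile normalization of all rows across arrays, which gives every array the same distribution of values, 4740 events passed for the F index. In bulk RNA, a loss of some cells and less RNA per cell cannot be told apart.

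**Figure D2:**
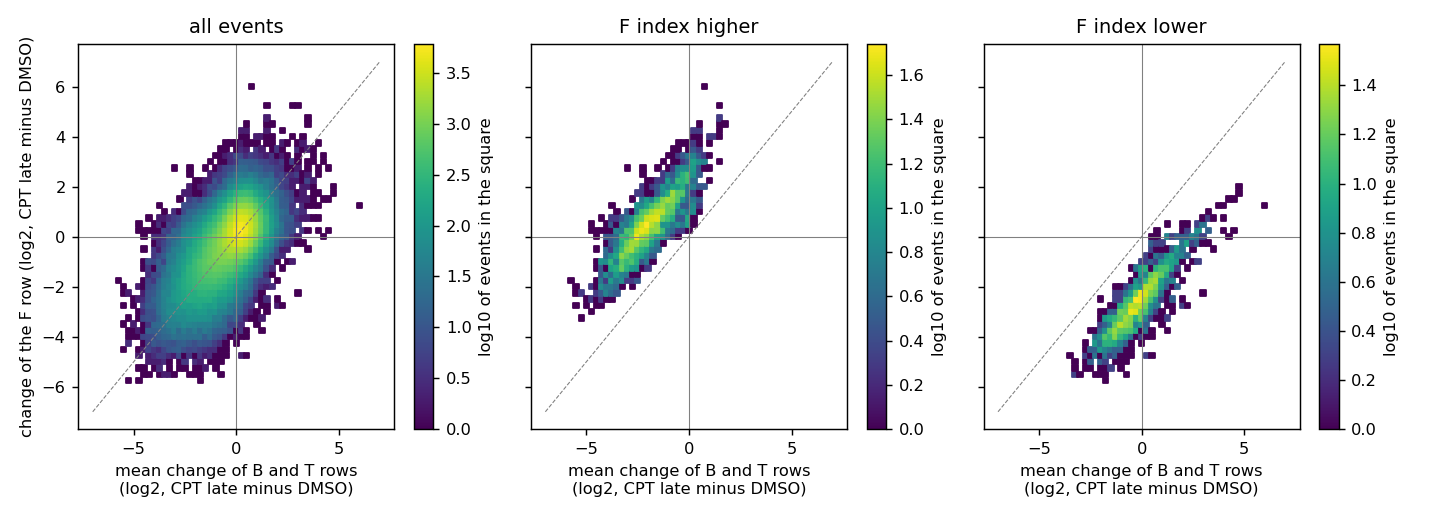
Change of the F row (vertical axis) against the mean change of the B and T rows (horizontal axis), both as CPT late minus DMSO on the log2 scale, for all events and for those with a higher or lower F index; colour gives the log10 of the number of events in each square of 0.25, with changes beyond 6 drawn at 6. Most of the 2712 higher events lie left of 0, where B and T fell, and most of the 1638 lower events lie under 0, where the F row fell.

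The largest rise of the F index came with a fall of B and T. In PPM1A event 13, in the gene of a metal-dependent protein phosphatase, the B row held 3.20 and 2.36 in CPT late, against 6.09 and 5.84 in DMSO, and the T row 3.42 and 3.31, against 6.14 and 6.23. The F row of the same event went the other way, with 5.95 and 6.0 in CPT late, against 3.05 and 3.61 in DMSO. The CPT 1, 2 and 4 h arrays stayed near DMSO, so that the CPT late arrays stood apart from all 5 others in each row. The index rose by 5.65 ± 0.62 (SE, adjusted p = 0.000354 by limma).

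KIF11, the gene of the kinesin motor that pushes the poles of the mitotic spindle apart, shows a fall of both B and T with no call for the F row. In its event 13 the B row held 2.81 and 2.50 in CPT late, against 8.18 and 8.05 in DMSO, and the T row 5.12 and 5.34, against 8.73 and 9.0. The F row held 4.41 and 5.13 in CPT late, against 4.95 and 4.23 in DMSO, which overlap. The index rose by 4.73 ± 0.47 (SE, adjusted p = 0.000183 by limma), and in KIF11 event 2 by 4.09 ± 0.50.

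GLRX2 event 5 and ANKRA2 event 11 had an F row that itself rose. In GLRX2, the gene of a mitochondrial glutaredoxin, the F row held 5.26 and 5.61 in CPT late, against 2.72 and 2.49 in DMSO, and was already at 3.79, 4.33 and 4.90 at 1, 2 and 4 h. Its F index rose by 5.08 ± 0.53 (SE, adjusted p = 0.000284 by limma), and B and T were also called lower. In ANKRA2, which encodes an ankyrin repeat protein, the F row held 2.53 and 3.99 in DMSO, 5.45, 5.89 and 7.42 at 1, 2 and 4 h of CPT, and 8.95 and 9.50 at 15 and 20 h. The groups did not overlap, and the row stood higher at each later time of CPT. B and T of the ANKRA2 event were not called, and the index rose by 5.16 ± 0.71 (adjusted p = 0.00172 by limma, 0.051 without the DMSO 4 h array).

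In 816 of the 1638 events with a lower F index the F row fell with no call for B or T, and WDR33 event 26 is one of them. WDR33 is the gene of a subunit of the cleavage and polyadenylation machinery that recognises the poly(A) signal. Its F row held 2.97 and 3.25 in CPT late, against 8.05 and 7.76 in DMSO, and 7.83, 7.11 and 6.87 at 1, 2 and 4 h. B held 2.63 and 2.43 in CPT late, against 2.32 and 2.83 in DMSO, and T 6.58 and 6.35, against 6.21 and 5.68, and neither row was called. The index fell by 5.04 on the log2 scale (SE 0.55, adjusted p = 0.000345 by limma). WDR33 event 22 of the same gene went the other way and rose by 4.81 ± 0.45, with a B row of 3.03 and 2.74 in CPT late, against 8.67 and 8.12 in DMSO, and an F row with no call.

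AHR event 5 (version 2) is named from CPT late minus CPT early and shows the same loss beside high B and T rows. AHR encodes the aryl hydrocarbon receptor, a transcription factor switched on by small ligands. Its F row held 2.27 and 2.02 in CPT late, against 5.77, 6.56 and 6.04 in CPT early and 6.01 and 6.25 in DMSO. The B row stayed between 10.18 and 11.02 on all 7 arrays and the T row between 7.95 and 9.34, and neither was called. The F index fell by 4.27 in CPT late minus CPT early (SE 0.28, adjusted p = 2.82e-06 by limma). HOOK1 event 6 and MRPL39 event 1, in genes of a cargo adaptor of dynein and of a mitochondrial ribosomal protein, fell by 4.5 and 4.42 in that comparison, with F rows of 2.36 and 1.71 in CPT late against 6.81, 6.73 and 6.97 in CPT early for HOOK1. SFSWAP event 19, in a gene that encodes a splicing regulator, fell by 4.19.

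**Figure D3:**
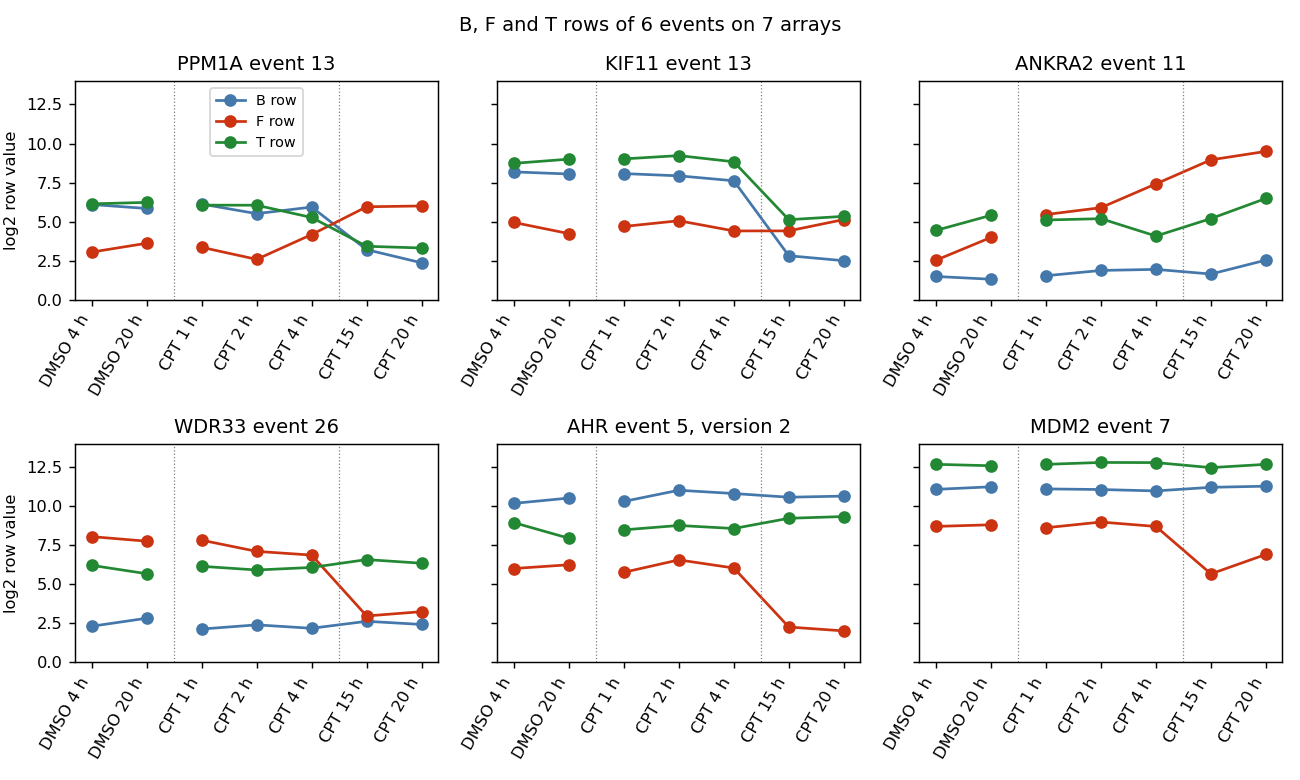
Log2 values (vertical axis) of the B (blue), F (red) and T (green) rows of 6 events on the 7 arrays, in the order DMSO 4 and 20 h, then CPT 1, 2, 4, 15 and 20 h; dotted lines part DMSO, CPT early and CPT late. In PPM1A and KIF11 B and T drop at 15 and 20 h, in ANKRA2 the F row climbs, and in WDR33, AHR and MDM2 the F row drops while B and T hold.

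MDM2 had the most called events of the genes named here, 11 of 25 by the F index, of which 2 were kept without the DMSO 4 h array, 6 without the DMSO 20 h array and 7 without the CPT 20 h array. It encodes the ubiquitin ligase that degrades p53 and is itself switched on by p53. In 8 of these events the index was higher and in 3 lower. In all 8 higher events the T row was called lower, with changes of -1.67 to -3.42, and no F row was called. MDM2 event 12 is an example: its B row held 7.99 and 7.58 in CPT late, against 10.23 and 10.20 in DMSO, its T row 6.53 and 7.07, against 9.07 and 8.64, and its F row 7.66 and 7.45, against 6.34 and 7.46. The index rose by 2.90 ± 0.40 (SE, adjusted p = 0.0016 by limma, 0.0504 without the DMSO 4 h array).

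In MDM2 events 7 and 19 the F row alone fell. The F row of event 7 held 5.67 and 6.92 in CPT late, against 8.71 and 8.81 in DMSO, while B held 11.21 and 11.28, against 11.08 and 11.24, and T 12.47 and 12.68, against 12.68 and 12.59. That is a fall of the index by 2.48 (SE 0.23, adjusted p = 0.000162 by limma), which passed also without any 1 array, with an adjusted p of 0.175 with time as a block. Event 19 had an F row of 1.92 and 1.97 in CPT late, against 4.06 and 4.55 in DMSO, and its index fell by 2.34 (adjusted p = 0.00705 by limma), with an adjusted p of 0.0618 without the DMSO 4 h array and 0.0701 without the DMSO 20 h array. In MDM2 event 18 the F and T rows both fell, and its index fell by 1.39 (adjusted p = 0.0357 by limma, 0.222 without the DMSO 4 h array and 0.128 without the DMSO 20 h array).

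**Figure D4:**
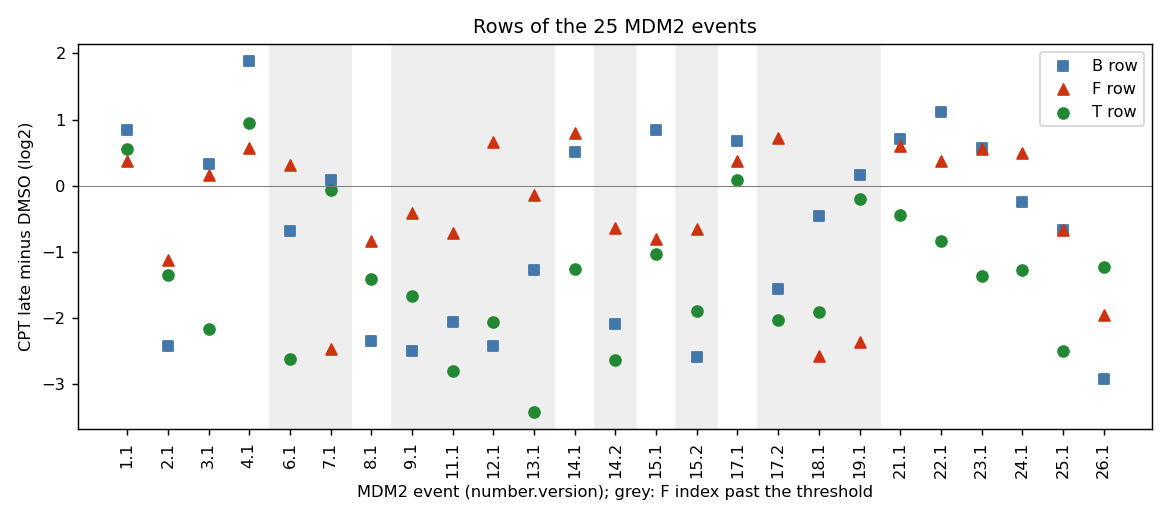
Change of the B (squares), F (triangles) and T (circles) rows of the 25 MDM2 events, CPT late minus DMSO on the log2 scale (vertical axis), by event number and version (horizontal axis); grey marks the 11 events called by the F index. In events 7 and 19 the F row lies near -2.4 with B and T near 0, and in most of the other grey events B and T lie below F.

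Histone genes made up the few early changes of the F index. In CPT early minus DMSO 3 events passed (0.00135%), all lower, against 11606 events with an unadjusted p under 0.05: H2BC21 events 1 and 2 and H4C15 event 1. H2BC21 and H4C15 encode histones H2B and H4, the proteins that package DNA. The F row of H2BC21 event 1 held 5.86, 6.20 and 6.42 at 1, 2 and 4 h, against 9.40 and 9.25 in DMSO, and the index fell by 3.99 (adjusted p = 0.0185 by limma). At 15 and 20 h the same row held 6.93 and 7.11, the B and T rows were called higher, and the index fell by 5.38 relative to DMSO. In H4C15 event 1 the F row held 5.03, 5.50 and 4.94 at 1, 2 and 4 h, against 6.23 and 6.44 in DMSO, while B held 7.11, 7.75 and 8.09, against 5.53 and 5.85, and its index fell by 3.38 (adjusted p = 0.0145). All 3 early calls were lost without the DMSO 4 h array, without the DMSO 20 h array or without the CPT 2 h array, where 0 events passed. H2BC21 event 1 was lost also without the CPT 1 h array (adjusted p = 0.0695) and without the CPT 4 h array (0.141). Without either CPT late array 7 events passed.

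The fit over all rows called 35 rows in CPT early minus DMSO, 10 higher (0.0015%) and 25 lower (0.00374%). Of the lower rows, 9 belong to H2BC21, 3 to H2AC6, 2 to H1-2 and 1 to H2AC11, all histone genes, and 3 to LUC7L3, whose product binds the U1 small nuclear ribonucleoprotein. The F row of H1-2 event 1 averaged 4.05 in CPT early, against 8.83 in DMSO, and was lower by 4.78 (adjusted p = 0.01 by limma). The histone rows were also below DMSO at 15 and 20 h, with a difference of -3.38 for the F row of H1-2 event 1 in CPT late.

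H2AC11 event 1, which carries an H2A gene, had the F row at 7.56 and 7.12 in CPT late, against 10.04 and 10.22 in DMSO. It had fallen already in CPT early, to 7.30, 6.84 and 7.35. Its index fell by 4.77 in CPT late (SE 0.54, adjusted p = 0.000403 by limma), with B and T rows that rose by 1.99 and 1.97.

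T minus B changed in 3416 events in CPT late minus DMSO (1.53%), and more often downwards, in 2415 events (1.08%), than upwards, in 1001 (0.449%). Of the 2415 lower events the T row was called lower in 1933 and the B row higher in 644, both in 222. Of the 1001 higher events the B row was called lower in 847 and the T row higher in 148. The count was 117 without the DMSO 4 h array, 634 without the DMSO 20 h array and 862 without the CPT 20 h array, and 14 with time as a block. CPT late minus CPT early gave 4334 calls (1.94%), 1401 higher (0.628%) and 2933 lower, and 1400, 1133, 1859 and 996 calls without the CPT 1, 2, 4 or 20 h array. In CPT late minus DMSO 399 events were called by both indices, which is 9.17% of the F index calls and 11.7% of the T minus B calls.

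PNLDC1 event 8 and LSM8 event 3 show that a large fall of T minus B came from either row. In PNLDC1 the B row held 8.72 and 9.45 in CPT late, against 1.43 and 2.43 in DMSO, with no call for T, and T minus B fell by 6.33 (adjusted p = 0.00385 by limma, 0.0714 without the DMSO 4 h array). In LSM8 event 3, in the gene of a protein bound to U6 small nuclear RNA, the T row held 3.21 and 2.47 in CPT late, against 7.94 and 7.67 in DMSO, and the B row 7.35 and 7.66, against 6.05 and 5.46. T minus B fell by 6.72 (SE 0.50, adjusted p = 0.000214 by limma). LSM8 had 3 of 4 events called lower, among the 5 highest shares of genes with at least 3 such calls, and in event 4 the B row stayed at 10.05 and 10.49 in CPT late, against 10.09 and 10.05 in DMSO, while T was at 5.70 and 6.30, against 8.92 and 8.54. In SETD2 event 7, in the gene of the methyltransferase that marks histone H3 in transcribed genes, the T row held 2.29 and 2.18 in CPT late, against 7.80 and 7.49 in DMSO. B was near 9 on those arrays, at 9.13 and 9.53, against 8.72 and 8.50, and T minus B fell by 6.13 (SE 0.49, adjusted p = 0.000295 by limma). UTP18 event 8, in a gene for an assembly factor of the small ribosomal subunit, fell by 5.91 in CPT late minus CPT early (adjusted p = 0.000748 by limma), with a T row of 1.38 and 1.11 in CPT late against 7.33, 7.33 and 7.18 in CPT early.

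AURKA, the gene of the spindle kinase Aurora A, had 13 of 20 events called by T minus B, 10 lower and 3 higher. Of these 13 calls 1 was kept without the DMSO 4 h array, event 4 (version 2), 4 without the DMSO 20 h array, 8 without the CPT 4 h array, 7 without the CPT 15 h array and 6 without the CPT 20 h array. In events 6, 10 and 4 (versions 2, 3 and 2) the B row lay between 12.49 and 12.71 on all 7 arrays, and the T row held 3.18 to 5.08 in CPT late, against 7.39 to 8.08 in DMSO. These 3 events hold nearly the same B values and are not separate evidence. The highest B value of an array ran from 13.32 (CPT 2 h) to 13.59 (CPT 15 h). Whether B rows this bright can follow a change was not tested. In event 4 (version 2) the index fell by 3.81 (adjusted p = 0.00158 by limma). Over the events of the mitosis list all 3 rows fell in CPT late minus DMSO. The median change was -1.65 for B, -1.71 for F and -2.02 for T, and that of T minus B was -0.32.

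In several events, as in PNLDC1 event 8, the B row rose out of a low level. The PNLDC1 row already averaged 6.97 in CPT early, against 1.93 in DMSO (adjusted p = 0.0255 by limma). CDC6 event 4, in a gene that licenses replication origins, had a B row of 7.48 and 7.45 in CPT late, against 3.89 and 4.57 in DMSO, and already 7.21, 7.67 and 7.13 at 1, 2 and 4 h. Its T row held 9.72 and 10.01 in CPT late, against 10.83 and 10.68 in DMSO. CDC6 event 4 and EIF5 event 15, in the gene of a translation initiation factor, were the 2 events called lower in CPT early minus DMSO by T minus B (0.000897%), and LUC7L3 event 6 was the 1 event called higher (0.000449%), 3 in all (0.00135%). Unadjusted p was under 0.05 in 11820 events. EIF5 event 15 had a B row of 7.43, 7.79 and 8.12 at 1, 2 and 4 h, against 5.25 and 4.93 in DMSO, and T minus B fell by 3.29 (adjusted p = 0.00966 by limma). Without the DMSO 20 h, CPT 2 h or CPT 4 h array 0 events passed in that comparison, and 2 others passed without the DMSO 4 h array.

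CDKN1A and RPS27L, both p53 target genes, showed the same shape. In CDKN1A event 14, in the gene of the cell cycle inhibitor p21, the B row held 8.09 and 8.28 in CPT late, against 1.61 and 3.8 in DMSO, with 5.25, 4.58 and 6.36 at 1, 2 and 4 h. T held 7.32 and 6.96 in CPT late, against 5.59 and 6.56 in DMSO, and T minus B fell by 4.41 (adjusted p = 0.00514 by limma, 0.0918 without the DMSO 4 h array). In RPS27L event 6 (version 2) B held 7.34 and 8.36 in CPT late, against 3.27 and 3.82 in DMSO, and T minus B fell by 5.59 (adjusted p = 0.000456). The opposite case is WAC event 25, in the gene of an adaptor for ubiquitination of histone H2B, where the B row held 1.62 and 2.53 in CPT late, against 8.47 and 8.25 in DMSO. There T minus B rose by 5.46 (adjusted p = 0.00517 by limma, 0.074 without the DMSO 4 h array).

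**Figure D5:**
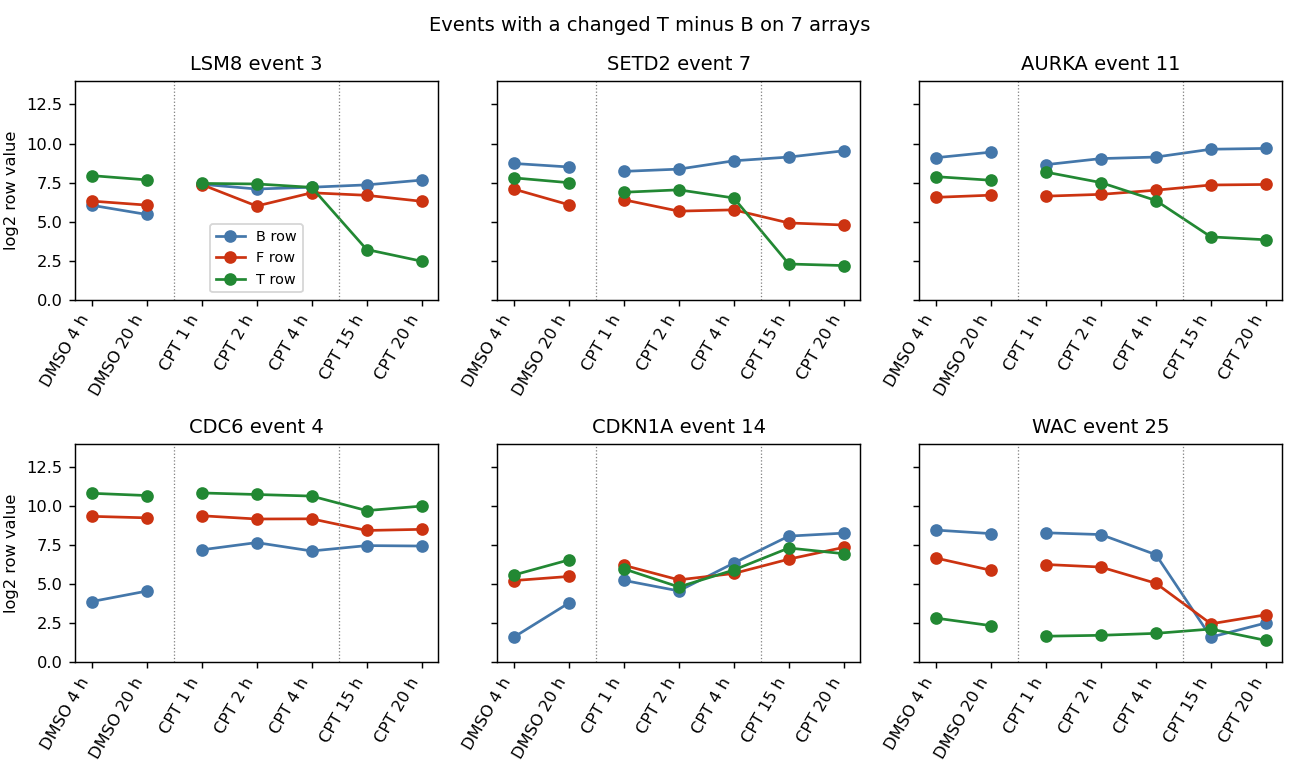
Log2 values (vertical axis) of the B (blue), F (red) and T (green) rows of 6 events on the 7 arrays, in the order DMSO 4 and 20 h, then CPT 1, 2, 4, 15 and 20 h. In LSM8, SETD2 and AURKA the T row drops at 15 and 20 h, in CDC6 and CDKN1A the B row lies above both DMSO arrays from 1 h of CPT on, and in WAC the B row drops at 15 and 20 h.

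The 3 lists of splicing genes hold 2329 events, of which the F index called 78 in CPT late (3.35%), 52 higher and 26 lower, beside 1.95% of all events. The events of these genes are brighter than most, with a median level of 6.62, against 4.04 for all events. In the brightest of 5 equal bins of events by level, 3.51% of the splicing list events were called, beside 4.64% of all events in that bin, and the difference between these shares was not tested. For T minus B the shares in that bin were 3.81% and 3.90%. Among single members, RBM25 had 8 of 30 events called by the F index and 7 by T minus B, RBM39 had 6 and 4 of 28, and both encode RNA-binding proteins of the spliceosome. They were picked for the highest numbers of F index calls among the 153 listed genes with events. SRSF3, an SR protein, had 1 of 8 events called by the F index and 4 by T minus B, all 4 lower. With time as a block, the adjusted p of these 4 T minus B calls ran from 0.279 to 0.747 by limma. In SRSF3 event 4 (version 2) the T row held 8.02 and 7.26 in CPT late, against 9.71 and 9.62 in DMSO. Other SRSF genes had fewer calls: SRSF5 had 1 and 2 of 13 events called, and SRSF1 0 and 1 of 7. SRSF2, SRSF4, SRSF6, SRSF7, SRSF8, SRSF9, SRSF10 and SRSF12 had 0 by either index.

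Topoisomerase and apoptosis genes come next. CASP2, whose product is an initiator caspase, had 0 of 14 events called by either index. Of all events 1.95% were called by the F index and 1.53% by T minus B. In genes with this few events, 0 or 1 calls do not set the gene apart from all events. RBM8A, a core member of the exon junction complex, had 0 of 8 called by the F index and 2 called lower by T minus B, events 4 and 9. TOP1, the gene of the enzyme that camptothecin traps, had 1 of 20 events called, event 10, with an F index higher by 1.74 (adjusted p = 0.0404 by limma); the call was lost without, among others, the DMSO 4 h array (adjusted p = 0.184), the DMSO 20 h array (0.185) or the CPT 20 h array (0.306). TOP2B event 6, in the gene of topoisomerase II beta, rose by 3.44 in the F index, with an F row of 8.53 and 8.73 in CPT late, against 6.70 and 7.54 in DMSO, and B of 3.26 and 3.66, against 6.06 and 5.87. CASP8 event 17 lost its F row, at 4.63 and 3.82 in CPT late, against 7.40 and 7.73 in DMSO, and its index fell by 3.33 (adjusted p = 0.00872 by limma, 0.103 without the DMSO 4 h array and 0.0546 without the DMSO 20 h array).

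Of the p53 target list, 27 of 228 events were called by the F index (11.8%, beside 1.95% of all events), 19 higher and 8 lower, and MDM2 supplied 11 of them. Without MDM2 the share was 7.88%. In the brightest bin it was 21.2% with MDM2 and 11.5% without it, beside 4.64% of all events there. ZMAT3, an RNA-binding p53 target, had an F row in event 6 of 6.68 and 7.48 in CPT late, against 2.61 and 4.08 in DMSO, with no call for B or T. Its index rose by 3.15 (adjusted p = 0.0131 by limma), with an adjusted p of 0.153 without the DMSO 4 h array, 0.0515 without the DMSO 20 h array and 0.121 without the CPT 20 h array. Of the mitosis list, 48 of 719 events were called (6.68%), 35 higher and 13 lower, and 9.97% in the brightest bin. Of the 1075 events of the DNA repair list 19 were called higher and 14 lower (3.07%, beside 1.95% of all events). In the brightest bin its share was 4.41%, beside 4.64% of all events there, and the difference was not tested. CHEK2, a checkpoint kinase, had T minus B lower by 4.70 in event 16, where B held 8.69 and 8.63 in CPT late, against 6.1 and 6.2 in DMSO. The adjusted p of this CHEK2 event was 0.00313 by limma, and 0.166 with time as a block. Beside the 1.95% of all events, caspases and the BCL2 family had 8 of 298 events called (2.68%), and genes of great length 15 of 614 (2.44%), 11 of them lower.

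The label of an epithelial line was set against marker genes. KRT18, an epithelial keratin, stood at 8.17 in CPT late and 8.34 in DMSO, and EPCAM, an epithelial adhesion molecule, at 7.85 and 7.97. Other epithelial markers changed or were dim. KRT19 stood at 6.28 in CPT late and 7.53 in DMSO, and CDH17, the lowest of the list in DMSO, at 2.91 and 2.52. The median over 14 epithelial markers was 4.12 in CPT late and 4.13 in DMSO, that of leukocyte markers 3.77 and 3.09, of endothelial markers 3.10 and 2.69, and of fibroblast markers 3.12 and 2.98. Levels of unlike probe sets cannot be compared with each other, so this does not test the label. Among the leukocyte markers LYZ stood at 7.36 in CPT late and 7.33 in DMSO, and PTPRC, which defines leukocytes, at 3.0 and 2.78. Of the epithelial list 3 of 138 events were called by the F index (2.17%), and of the leukocyte and endothelial lists 0 of 110 and 0 of 220 by either index, beside 1.95% of all events for the F index and 1.53% for T minus B. The leukocyte, endothelial and fibroblast events are dim, with median levels of 2.82, 2.97 and 2.97, against 4.04 for all events. In the 2 dimmest of 5 bins by level, the F index was called higher in only 0.256% and 0.336% of events and lower in 0.193% and 0.48%. Of the fibroblast list 2 of 318 events were called by the F index (0.629%), among them COL1A1 event 14, whose B row held 5.70 and 6.33 in CPT late, against 3.58 and 2.72 in DMSO. The adjusted p of the COL1A1 event was 0.0294 by limma, and 0.19 with time as a block.

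The indices of events of 1 gene did not change together much, while their rows did. Of 410 genes with at least 3 called events by the F index, 267 had calls in both directions, 110 only higher and 33 only lower. By T minus B, 155 of 275 genes had both directions, 6 only higher and 114 only lower. The change of the F index correlated at 0.199 between neighbouring events in the numbering (163111 pairs) and at 0.131 between versions 1 and 2 of the same event (8141 pairs). That of T minus B correlated at 0.103 between neighbours. The change of the rows correlated at 0.665 for F, 0.519 for B and 0.719 for T between neighbours, and the indices cancel what the 3 rows share. These correlations are across events, which share arrays, and are a description. In FAU, the gene of a fusion of a ubiquitin-like protein with ribosomal protein S30, all 3 events were called higher, by 0.62, 1.24 and 0.96. In SHB, the gene of an adaptor protein, all 4 were called, 2 in each direction. Without the DMSO 4 h array 0 of the 3 FAU calls and 0 of the 4 SHB calls were kept, without the DMSO 20 h array 1 and 1, without the CPT 15 h array 1 and 3, and without the CPT 20 h array 1 and 0.

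LY6G5C, a gene of the Ly6 family, had 5 of 6 events called higher by T minus B, of which 0 were kept without the DMSO 4 h array and 1 each without the DMSO 20 h, CPT 15 h or CPT 20 h array. The T row of event 1 (version 2) held 7.96 and 8.27 in CPT late, against 2.99 and 2.65 in DMSO, and 4.99, 6.1 and 6.61 at 1, 2 and 4 h. T minus B rose by 5.13 (adjusted p = 0.00517 by limma, 0.0742 without the DMSO 4 h array). The T rows of events 1, 2 and 6 hold similar values and are not separate evidence.

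The share of events called differed with where they fell in the numbering of a gene. In 13609 genes with at least 5 events, the share with a lower T minus B was 1.77%, 1.45%, 1.03%, 0.755% and 0.691% in 5 bins from the lowest to the highest event number, and that with a higher one 0.363%, 0.313%, 0.401%, 0.549% and 0.584%. Within the brightest bin of events by level, the lower calls ran from 4.84% to 1.38%. For the F index, higher calls made up 1.35%, 1.53%, 1.32%, 1.11% and 0.942%. Whether the numbers run along the transcript is not given in the sources used here. The brightness itself went with the calls: in 5 bins by level from dim to bright, higher F indices made up 0.256%, 0.336%, 0.623%, 1.58% and 3.29%.

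The probe sets named C, D and E of the same events were not used in the indices. In 222792 events they were measured too. The difference of E and the mean of C and D shares no row with the F index. Its change was above 0 in 83.3% of the events with a higher F index and in 65.1% of those with a lower one, against 60.8% of all events, with medians of 1.08, 0.40 and 0.18. Over all events it correlated at 0.103 with the change of the F index. The share above 0 was 88.5% in events with a higher T minus B and 49% in those with a lower one. It is thus not particular to a higher F index. In events with a higher F index the median change was -0.47 for C, -1.0 for D and 0.085 for E.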

How the data were processed

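The deposited file holds 1 value per probe set and array, and the values are read here as log2 signals from their range, since no header names the scale. Per the submitters' processing notes, the tools were RMA, Partek 6.08 and R 2.11.1, whose steps and order are not stated. Background correction: not given in the sources used here, like the genome build. All 7 value columns matched an array by its label, leaving 0 unmapped. For each event the F index and T minus B were computed per array and fitted over all 222959 events with limma 3.58.1 in R 4.3.3 (and the data.table package, version 1.17.8), using group means for CPT late, CPT early and DMSO, lmFit and eBayes with a mean-variance trend, and Benjamini-Hochberg adjustment with a threshold of 0.05. The fit had 4 residual degrees of freedom, and prior ones of 13.9 for the F index and 9.56 for T minus B. Rows were fitted in the same way over 668877 rows. The fits were tested on simulated data, where most events with a change of known size did not pass the threshold. Only a small share of the simulated events was changed, so the share that passed does not carry over to the measured arrays.

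Genes were named through the platform annotation and a RefSeq table of genes (GRCh38.p14), in which 17755 of 18498 identifiers were found. Named events are the 10 largest changes past the threshold in each direction of each comparison, at most 3 events of each gene list, all events of the 5 genes with the highest shares of calls, and all events of MDM2, CASP2, RBM8A, TOP1 and SRSF3. The early row calls, COL1A1 event 14 and the choice among the named events were made after their values were seen. The members and lists were chosen with earlier results of these data known. Alternatives were filters on row means, quantile normalization, centring, no trend, robust fitting, other comparators, 1 value per gene, a time block and leaving out each array. The arrays hold no read depth, and their number limits the precision.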

Additional observations from a re-analysis of the deposited data

Results flagged for a closer look

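The change of the F index at 15 and 20 h of CPT differed from that at 1, 2 and 4 h in 4991 events, by the test of CPT late minus CPT early in limma with Benjamini-Hochberg adjustment. For T minus B the same test of the difference between the late and the early effect gave 4334 events. Both effects are set against the same DMSO arrays, which cancel in this difference.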

How the results depend on the processing

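Counts are given for CPT late minus DMSO, CPT early minus DMSO and CPT late minus CPT early, in that order. Leaving out 1 array gave 265 to 4734, 0 to 7 and 1266 to 4964 events for the F index, and 117 to 3692, 0 to 5 and 996 to 4242 for T minus B. Without a mean-variance trend the F index gave 1109, 0 and 1525 events and T minus B 575, 0 and 1174. With all 3 row means above 5, chosen after seeing the data, the F index gave 2455, 1 and 2969 events, and T minus B 1967 and 2551 in the comparisons with late arrays; fewer events were tested. With all 3 row means above the set level, CPT early minus DMSO gave 7 for the F index. With the higher of B and T as comparator the early count was 6, and with the lower one the late count was 2823. Requiring calls against both B and T gave 673, 0 and 877 events. With 1 value per gene there were 1, 1 and 11 genes for the F index and 11, 0 and 3 for T minus B. The cause of these differences was not tested. Of 203 named results, 41 kept their side of the threshold in each setting run, and 0 changed sign. Some of the 41 were never called, such as CD68 event 14 (adjusted p = 0.438 by limma). The time block was not run for CPT late minus CPT early. Of the 168 named results it was run for, 142 lost their call.

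The labels give no replicate numbers, and they pair CPT and DMSO arrays only by time, at 4 and 20 h. Blocking on time, with only the arrays of 4 and 20 h, tests 1 CPT effect over both times and gave 104 events for the F index and 14 for T minus B, set against both CPT late and CPT early. Centring each array on its median index gave 4168 late F index calls, 2346 higher and 1822 lower. No time point was repeated, which limits every test.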
